A study of Homo sapiens with 12 samples.

Results

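The 10 genes described here encode enzymes that supply cells with deoxynucleotides, the building blocks of DNA. RRM1, RRM2 and RRM2B are subunits of ribonucleotide reductase, TYMS, DTYMK, DCTD and DUT serve thymidylate synthesis, TK1 and DCK salvage deoxynucleosides, and SAMHD1 breaks deoxynucleotides down. They were chosen by name, all 10 were among the 60649 gene rows of every count table, and all 10 passed the filter on low counts that left 16683 genes for testing. RNA was sequenced from SBC3, an established human small cell lung cancer line, grown as spheroids, which are cell aggregates in suspension. There were 12 libraries in 4 groups of 3: untreated control spheroids, spheroids given teriflunomide, spheroids given lurbinectedin, and spheroids given both drugs, called the combination here. Teriflunomide, the active metabolite of leflunomide, inhibits DHODH, an enzyme of de novo pyrimidine synthesis, and lurbinectedin binds DNA and blocks transcription. Doses and exposure times were not given in the sources used here, every library came from the same cell line, and no label says that replicates were separate cultures, so p-values measure the spread between these libraries only.

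Ribonucleotide reductase removes an oxygen atom from the ribose of each ribonucleoside diphosphate and so feeds all DNA synthesis. Its catalytic large subunit RRM1 pairs with RRM2, which is made for S phase, or with RRM2B, also called p53R2, a target of the tumour suppressor p53 that serves DNA repair and mitochondrial DNA outside S phase. Pyrimidine synthesis through DHODH yields UMP, from which the cell makes the substrates of ribonucleotide reductase and, through DCTD, DUT and TYMS, thymidylate. The salvage kinases TK1 and DCK take up finished deoxynucleosides instead, and SAMHD1 hydrolyses deoxynucleoside triphosphates and so sets an upper limit on the pool.

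Sequences are shown to place these genes beside the cell-cycle control for which several are known. Among the members with matches, RRM2, TK1, DTYMK, RRM1 and TYMS rose under lurbinectedin and DUT and SAMHD1 fell. The 250 bases before a RefSeq transcript start (GRCh38.p14) were at hand for 9 members, all but RRM2B, and for genes with several starts the most downstream one was used. They were searched on both strands for TTTNNCGC, letters bound by E2F factors, and for CCAAT, letters bound by NF-Y; no match of either motif overlapped a match of the other. Each line runs 5′ to 3′ on the strand of the gene, capitals mark the matched letters (ATTGG and GCGGGAAA are matches on the opposite strand), and the count of bases is from the first capital to the start.
RRM2, chr2:10122608-10122628, 123 bases before the start: aggcgcagCCAATgggaaggg
RRM2, chr2:10122638-10122658, 93 bases before the start: tggcacagCCAATgggaaggg
RRM2, chr2:10122665-10122685, 66 bases before the start: caccaaagCCAATgggaaggg
TK1, chr17:78187117-78187137, minus strand, 77 bases before the start: gggcgctgATTGGccccatgg
TK1, chr17:78187086-78187106, minus strand, 46 bases before the start: ggctcgtgATTGGccagcacg
DTYMK, chr2:241686895-241686915, minus strand, 92 bases before the start: ggccccggCCAATcccttcga
DTYMK, chr2:241686827-241686847, minus strand, 24 bases before the start: gacgccggCCAATgggagctc
SAMHD1, chr20:36951735-36951764, minus strand, 49 bases before the start: caggaggCCAATaggctgCCAATactcctt
RRM1, chr11:4094649-4094669, 28 bases before the start: gtccatatCCAATggggccca
TYMS, chr18:657606-657629, 39 bases before the start: ggacggccGCGGGAAAaggcgcgc
DUT, chr15:48332152-48332180, 42 bases before the start: ctgGCGGGAAAtttcggtTTTGGCGCgct

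RRM2 carried 3 CCAAT matches, each followed by the same 8 bases in the lines above, and TK1, DTYMK and SAMHD1 carried 2 each. Of 35116 RefSeq promoter windows of this length, 32.0% held at least 1 CCAAT, 9.53% at least 2 and 2.93% at least 3. DUT carried 2 TTTNNCGC matches and TYMS 1, against 5.92% of windows with at least 1 and 0.413% with at least 2. DCK and DCTD held neither motif. TTTGAA, letters of the cell-cycle homology region, matched the windows of RRM1 and DUT, 2 of 9, against 13.3% of all windows. The same search with GGGCGG, the GC box, matched 6 of the 9 windows, and 42.6% of all windows held it. The matches depend on the start: the window of the more upstream RRM2 start held 1 CCAAT, that of the more upstream TK1 start held none, and the windows of the 3 more upstream DUT starts held no match of the E2F-type letters or of the cell-cycle homology letters. CCAAT matches stood before genes that rose (RRM2, TK1, DTYMK and RRM1) and before SAMHD1, which fell; TTTNNCGC matches stood before TYMS, which rose, and DUT, which fell.

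Total counts per library ranged from 23206414 to 33222162, and the members had 178 to 18656 counts in a library. The share of counts on mitochondrially encoded genes was 6.26 to 7.17% in control libraries and 13.8 to 17.0% in lurbinectedin libraries. It was 8.42%, 8.43% and 22.6% in the teriflunomide group and 14.6%, 24.9% and 13.1% in the combination group. Teriflunomide replicate 3 and combination replicate 2 thus stood apart from their groups, and member calls that change without them are given beside the results. Among 11 subtype and neuroendocrine markers, 5 reached 1 CPM, a read count normalised to library size, in any library: YAP1 averaged 246 CPM in control, ENO2 38.5, SYP 16.8, NEUROD1 4.03 and DLL3 1.96. INSM1 and UCHL1 had no counts, and NCAM1 and CHGA stayed under 1 CPM. The summed level of these 11 genes was 298 to 320 CPM in control libraries and 335 to 393 CPM under teriflunomide. Under lurbinectedin it was 160 to 179 CPM, and under the combination 185 to 237 CPM. Most of the control sum was YAP1, which averaged 64.9 CPM with lurbinectedin and 97.2 with the combination. NEUROD1 was also lower than in control (1.62 and 2.51 CPM). ENO2 (69.6 and 72.1 CPM) and SYP (30.9 and 34.1 CPM) were higher, and DLL3 averaged 2.33 and 1.97 CPM. Of 5 fibroblast markers, COL1A1 averaged 266 CPM and COL1A2 270 in control and 107 and 99.9 with lurbinectedin, while LUM had no counts and DCN at most 0.0485 CPM. KRT8 was the sole epithelial marker of 4 above 1 CPM, CD14 at 1.86 CPM with lurbinectedin the sole leukocyte marker of 5, and none of 4 endothelial markers reached 1 CPM. The part of these marker changes in the results was not tested.

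Lurbinectedin raised 6 of the 10 transcripts and lowered 2. RRM2 and RRM2B, the alternative small subunits of ribonucleotide reductase, rose most, TK1 followed, and DTYMK, TYMS and RRM1 rose by smaller amounts. SAMHD1 and DUT fell, and DCK and DCTD did not pass the test. In edgeR's quasi-likelihood test at a Benjamini-Hochberg adjusted p under 0.05, 71.6% of all 16683 genes were called in this comparison, 36.0% higher and 35.7% lower, so 8 called members of 10 is close to the background. The libraries did not overlap between the groups for 9 members, all but DCK, against 83.2% of all genes. The median log2 fold change was 0.33 over the members and 0.05 over all genes. In bulk RNA, fewer cells of a kind and less RNA per cell cannot be told apart, and with lurbinectedin CPM says how a transcript stood relative to all others, not how many copies a cell held.

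RRM2 (ENSG00000171848.16, chromosome 2, 10120698 to 10211725, plus strand) measured 225, 246 and 227 CPM in control and 263, 232 and 238 CPM with teriflunomide. It measured 605, 655 and 658 CPM with lurbinectedin and 672, 650 and 595 CPM with the combination. The 6 libraries exposed to lurbinectedin all lay above the 6 others, and within each set the groups overlapped. RRM2 was 2.75 times its control mean with lurbinectedin, or log2 1.46 (SE 0.091, edgeR adjusted p = 6.02e-09), and 2.74 times with the combination (1.46, SE 0.091, adjusted p = 7.77e-09). Teriflunomide alone gave 0.068 (SE 0.090, adjusted p = 0.664), and the combination differed from lurbinectedin alone by -0.000575 (SE 0.090, adjusted p = 0.998). Of the RRM2 pseudogenes in the tables, 3 had 0 to 12 counts over all libraries against 145367 for RRM2, though reads of near-identical copies can be split or dropped in counting.

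RRM2B (ENSG00000048392.12, chromosome 8, 102204502 to 102238961, minus strand) measured 80.1, 81.1 and 75.2 CPM in control and 143, 151 and 169 CPM with teriflunomide. With lurbinectedin it measured 234, 285 and 263 CPM, and with the combination 348, 297 and 265 CPM. Every teriflunomide library was above every control and below every library with lurbinectedin, and the lurbinectedin and combination libraries overlapped. RRM2B was the sole member called with teriflunomide alone, where 6.01% of all genes were called, 3.88% higher and 2.13% lower: it rose 1.96-fold (log2 0.97, SE 0.12, edgeR adjusted p = 0.000754), and this call held in all 21 alternative analyses. It rose 3.31-fold with lurbinectedin (log2 1.73, SE 0.12, adjusted p = 1.54e-08) and 3.85-fold with the combination (1.95, SE 0.12, adjusted p = 6.69e-09).

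The added effect of teriflunomide on RRM2B was smaller beside lurbinectedin than alone, but the test of that difference did not pass. On top of lurbinectedin, teriflunomide added 0.22 to the log2 level of RRM2B (SE 0.11, edgeR adjusted p = 0.369), against 0.97 alone. The interaction, the effect beside lurbinectedin minus the effect alone, was -0.75 (SE 0.16, adjusted p = 0.0992). Over 20 alternative analyses it ranged from -0.84 to -0.60 with adjusted p from 0.00574 to 0.401, and 4 of them called it: DESeq2, no filter on low counts (adjusted p = 0.0263), the fit without teriflunomide replicate 3 (0.0162), and the fit without both libraries of high mitochondrial share (0.00677). In the fit to all 12 libraries no member was called for the interaction, for which 0.258% of all genes were called. TYMS was called in 1 alternative, without both libraries of high mitochondrial share (-0.33, adjusted p = 0.0216).

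RRM1 (ENSG00000167325.15, chromosome 11, 4094707 to 4138932, plus strand), the large subunit, changed least among the called members. It measured 255, 272 and 257 CPM in control, 272, 258 and 271 CPM with teriflunomide, 304, 304 and 322 CPM with lurbinectedin, and 313, 285 and 307 CPM with the combination. The libraries with lurbinectedin lay above all others, by 1.19 times the control mean for lurbinectedin alone (log2 0.25, SE 0.081, edgeR adjusted p = 0.0140) and 1.15 times for the combination (0.21, SE 0.081, adjusted p = 0.0350). Against teriflunomide the combination was not called for RRM1 (adjusted p = 0.0691), but it was without teriflunomide replicate 3 (0.0418), without combination replicate 2 (0.0308) and without both (0.00979). The call against control ended in 6 of 21 alternatives for lurbinectedin and in 14 of 21 for the combination. With library size as the only scaling, RRM1 changed by 0.01 with lurbinectedin (adjusted p = 0.928).

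**Figure D1:**
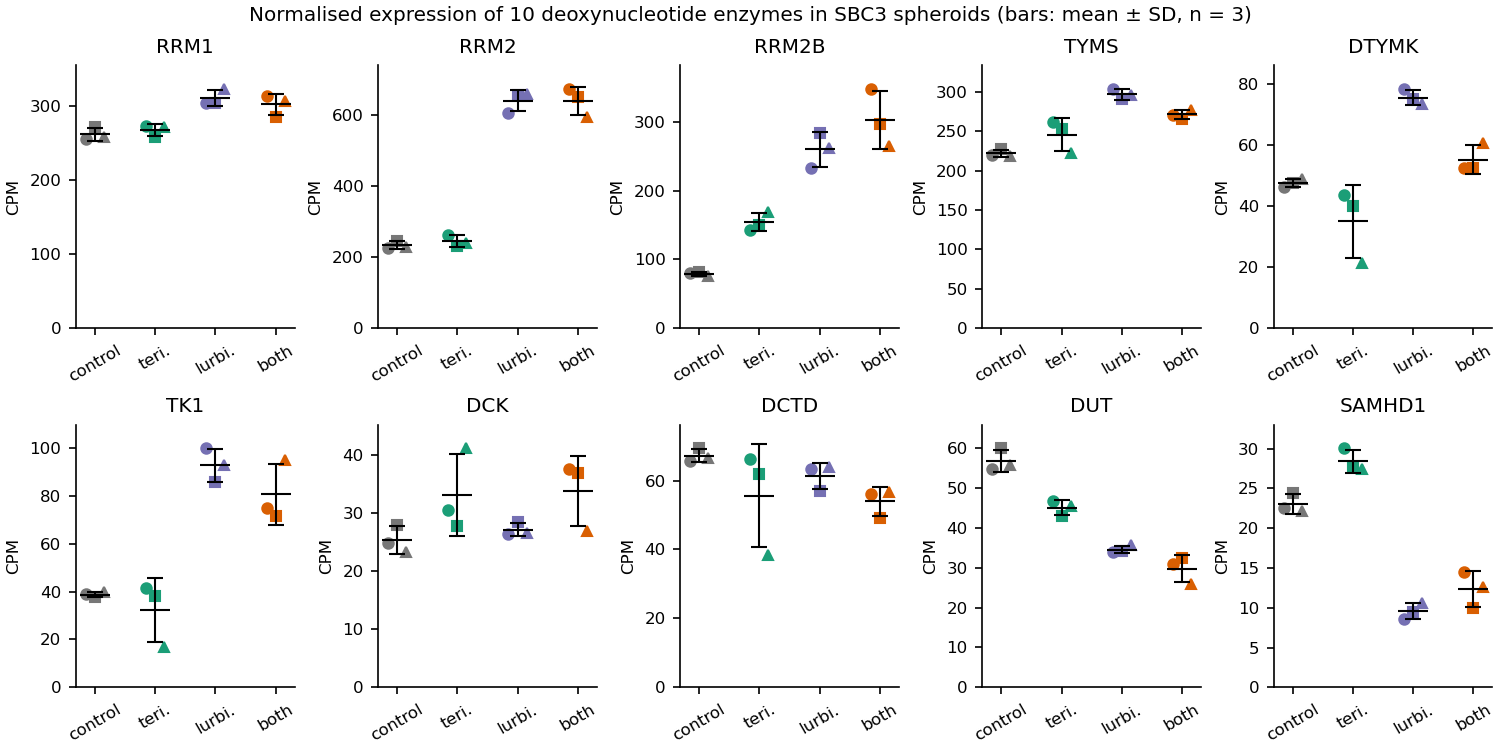
Normalised expression (CPM, linear axis from 0) of the 10 members in each of the 12 libraries; circles, squares and triangles are replicates 1, 2 and 3, long bars the mean and error bars the SD of 3 libraries (teri., teriflunomide; lurbi., lurbinectedin; both, the combination). RRM2 sits between 225 and 263 CPM without lurbinectedin and between 595 and 672 CPM with it, while RRM2B already stands at 143 to 169 CPM with teriflunomide alone.

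The balance between the alternative small subunits shifted in every treated group toward RRM2B. With CPM divided by the exonic length in the count tables, the log2 ratio of RRM2B to RRM2 was -0.73, -0.84 and -0.83 in control and -0.11, 0.14 and 0.27 with teriflunomide. In the lurbinectedin libraries it was -0.61, -0.44 and -0.56, and in the combination libraries -0.19, -0.37 and -0.40. No groups overlapped in this ratio, and the closest were lurbinectedin, up to -0.44, and the combination, down to -0.40. The mean ratio was above control by 0.90 in the teriflunomide group, 0.26 under lurbinectedin and 0.48 under the combination, and the combination minus teriflunomide was -0.42. These differences of the ratio were not tested. The differences between groups do not depend on the length used, but the level does: with the longest coding transcript as the length, the mean ratio was -1.99 for control, -1.09 for teriflunomide, -1.72 for lurbinectedin and -1.51 for the combination, so RRM2B exceeded RRM2 in no group.

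**Figure D2:**
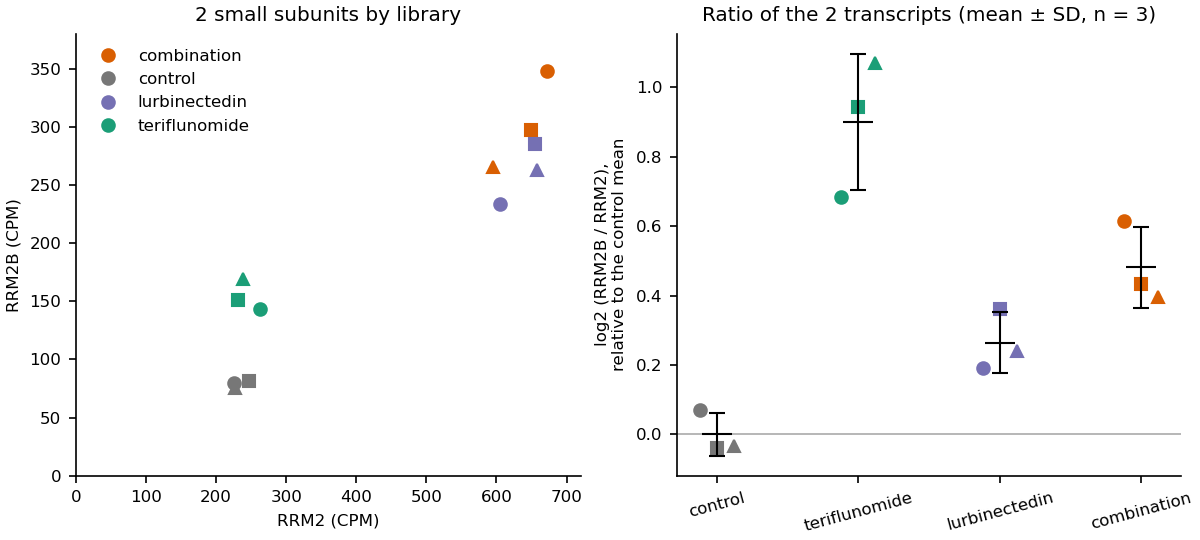
Left, RRM2B against RRM2 in CPM (linear axes) for each of the 12 libraries; right, the log2 ratio of RRM2B to RRM2 relative to the control mean, with long bars for the mean and error bars for the SD of 3 libraries, and circles, squares and triangles for replicates 1, 2 and 3. The teriflunomide libraries lie above control at a like level of RRM2, the lurbinectedin libraries lie above and to the right, and the mean ratio stands 0.90 above control with teriflunomide against 0.26 with lurbinectedin.

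Of the thymidylate enzymes, TYMS and DTYMK rose with lurbinectedin, DCTD was not called, and DUT fell. TYMS (ENSG00000176890.16, chromosome 18, 657653 to 673578, plus strand), thymidylate synthase, which methylates dUMP to dTMP, measured 220, 227 and 218 CPM in control and 262, 253 and 222 CPM with teriflunomide. It measured 303, 290 and 296 CPM with lurbinectedin and 270, 266 and 277 CPM with the combination. The 3 lurbinectedin libraries were the highest of all 12, and the combination libraries lay between them and control. TYMS rose 1.34-fold with lurbinectedin (log2 0.42, SE 0.085, edgeR adjusted p = 0.000524) and 1.22-fold with the combination (0.29, SE 0.085, adjusted p = 0.00768). Both calls ended with library size as the only scaling (0.19, adjusted p = 0.270, and 0.13, adjusted p = 0.460). With teriflunomide alone TYMS was not called (adjusted p = 0.297), but it was without both libraries of high mitochondrial share (0.21, adjusted p = 0.0222). On the opposite strand ENOSF1 shares 39.94% of the exonic bases of TYMS, and strand use in counting was not given in the sources used here. ENOSF1 had 5851 counts over all libraries against 88829 for TYMS, and its change with lurbinectedin was -0.22 (SE 0.12, adjusted p = 0.102).

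DTYMK (ENSG00000168393.13, chromosome 2, 241675747 to 241686944, minus strand), thymidylate kinase, which phosphorylates dTMP, measured 46.3, 47.6 and 48.9 CPM in control. With teriflunomide it measured 43.6, 40.1 and 21.2 CPM, with lurbinectedin 78.3, 75.0 and 73.3 CPM, and with the combination 52.4, 52.5 and 60.6 CPM. No group overlapped another, in the order teriflunomide, control, combination, lurbinectedin. The change with teriflunomide alone was not called (log2 -0.44, SE 0.19, edgeR adjusted p = 0.177), and 1 of 21 alternatives called it. DTYMK rose 1.59-fold with lurbinectedin (log2 0.67, SE 0.19, edgeR adjusted p = 0.00703), a call that ended with library size as the only scaling (0.43, adjusted p = 0.166). The combination was called above teriflunomide (0.66, SE 0.19, adjusted p = 0.00793) but neither above control (0.21, SE 0.19, adjusted p = 0.343) nor below lurbinectedin (-0.45, SE 0.19, adjusted p = 0.290). Without teriflunomide replicate 3, at 21.2 CPM the lowest of all libraries, the combination was called below lurbinectedin for DTYMK (-0.45, SE 0.081, adjusted p = 0.00463) and above control (0.20, SE 0.081, adjusted p = 0.0312). It was also called above control without both libraries of high mitochondrial share (adjusted p = 0.0130) and with only the groups compared (0.0491).

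DUT (ENSG00000128951.14, chromosome 15, 48331011 to 48343373, plus strand), dUTPase, which keeps uracil out of DNA and yields dUMP for TYMS, fell with lurbinectedin and with the combination. It measured 54.7, 59.9 and 55.7 CPM in control, 46.7, 42.9 and 45.6 CPM with teriflunomide, 33.9, 34.2 and 35.6 CPM with lurbinectedin, and 31.0, 32.4 and 26.0 CPM with the combination. No group overlapped its neighbour in that order. Lurbinectedin lowered DUT 1.64-fold (log2 -0.72, SE 0.11, edgeR adjusted p = 3.60e-05) and the combination 1.91-fold (-0.93, SE 0.11, adjusted p = 3.35e-06). With teriflunomide alone the change was -0.33 (SE 0.11, adjusted p = 0.0770), which DESeq2 called (adjusted p = 0.0108), as did the edgeR fits without teriflunomide replicate 3 (adjusted p = 0.0439) and without both libraries of high mitochondrial share (0.0114). The combination differed from lurbinectedin by -0.22 (SE 0.11, adjusted p = 0.348). DUT has 8 pseudogene copies in the tables, of which DUTP6 had 90 counts and the others 0, against 14644 counts for DUT, and it shares 14.51% of its exonic bases with the antisense gene DUT-AS1, which had 230.

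DCTD (ENSG00000129187.15, chromosome 4, 182890060 to 182917936, minus strand), dCMP deaminase, which makes dUMP from dCMP, was called in no comparison in the fit to all 12 libraries. It measured 65.6, 69.3 and 66.6 CPM in control, 66.3, 61.9 and 38.5 CPM with teriflunomide, 63.2, 57.0 and 63.9 CPM with lurbinectedin, and 56.1, 49.2 and 56.7 CPM with the combination. The lurbinectedin and combination libraries were all below control, by log2 changes of -0.13 (SE 0.16, edgeR adjusted p = 0.482) and -0.32 (SE 0.16, adjusted p = 0.0970). Without teriflunomide replicate 3, at 38.5 CPM the lowest of all libraries, DCTD was called lower with the combination than in control (-0.32, adjusted p = 0.00157) and than with teriflunomide (-0.26, adjusted p = 0.0167). Without both libraries of high mitochondrial share, both DCTD calls were also made (adjusted p = 0.00507 and 0.0472). Against control, 4 of 21 alternatives called DCTD lower with the combination and 1 of 21 with lurbinectedin.

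TK1 (ENSG00000167900.12, chromosome 17, 78174091 to 78187233, minus strand), the cytosolic thymidine kinase of S phase, measured 38.8, 37.6 and 39.9 CPM in control and 41.5, 38.1 and 16.9 CPM with teriflunomide. It measured 99.9, 86.0 and 92.8 CPM with lurbinectedin and 75.0, 71.7 and 95.2 CPM with the combination. All 6 libraries with lurbinectedin were above the other 6, and the lurbinectedin and combination libraries overlapped. TK1 rose 2.39-fold with lurbinectedin (log2 1.26, SE 0.24, edgeR adjusted p = 0.000333) and 2.08-fold with the combination (1.06, SE 0.24, adjusted p = 0.00144). With teriflunomide alone the change was -0.27 (SE 0.24, adjusted p = 0.506), and 0.036 (SE 0.11) without teriflunomide replicate 3.

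DCK (ENSG00000156136.10, chromosome 4, 70992538 to 71030914, plus strand), deoxycytidine kinase, was the salvage enzyme not called with lurbinectedin: the log2 change was 0.10 (SE 0.16, edgeR adjusted p = 0.604). It measured 24.8, 27.9 and 23.3 CPM in control, 30.5, 27.7 and 41.1 CPM with teriflunomide, 26.4, 28.4 and 26.5 CPM with lurbinectedin, and 37.6, 36.9 and 26.8 CPM with the combination. Its groups overlapped in every comparison. The combination was called above control (0.41, SE 0.16, adjusted p = 0.0351), a call that ended in 8 of 21 alternatives, among them the fits without combination replicate 1 (adjusted p = 0.122) and without combination replicate 2 (0.111). The teriflunomide value of 0.39 (SE 0.16, adjusted p = 0.161) became 0.20 without replicate 3. DCK shares 6.41% of its exonic bases with MOB1B on the same strand, and MOB1B fell by 1.12 on the log2 scale with lurbinectedin (adjusted p = 0.00023).

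SAMHD1 (ENSG00000101347.11, chromosome 20, 36890229 to 36951893, minus strand) fell with lurbinectedin. It measured 22.6, 24.5 and 22.1 CPM in control, 30.04, 27.7 and 27.5 CPM with teriflunomide, 8.63, 9.46 and 10.6 CPM with lurbinectedin, and 14.5, 9.99 and 12.6 CPM with the combination. All teriflunomide libraries were above control and all libraries with lurbinectedin below it, while lurbinectedin and the combination overlapped. SAMHD1 was 2.41-fold lower with lurbinectedin (log2 -1.27, SE 0.14, edgeR adjusted p = 2.11e-06) and 1.87-fold lower with the combination (-0.90, SE 0.14, adjusted p = 5.60e-05). The rise with teriflunomide alone did not pass (0.30, SE 0.14, adjusted p = 0.186), nor did the difference of the combination from lurbinectedin (0.37, SE 0.14, adjusted p = 0.253). Without the 2 libraries of high mitochondrial share, both were called for SAMHD1 (0.32, adjusted p = 0.0286, and 0.50, adjusted p = 0.00405).

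With the combination, 8 members were called against control, 6 higher and 2 lower, where 68.4% of all genes were called, 34.1% higher and 34.4% lower. The groups did not overlap for 9 members, against 77.2% of all genes. The called ones were RRM2, RRM2B, TK1, DCK, TYMS and RRM1 above control and DUT and SAMHD1 below it. Against teriflunomide alone the combination had 6 called members, with RRM2 (log2 1.39, SE 0.091), TK1 (1.32, SE 0.24), RRM2B (0.98, SE 0.12) and DTYMK (0.66, SE 0.19) higher and SAMHD1 (-1.20, SE 0.14) and DUT (-0.60, SE 0.11) lower in edgeR, where 70.9% of all genes were called, 35.2% higher and 35.8% lower. The groups did not overlap for 8 members, against 70.7% of all genes. The comparisons with control share the 3 control libraries, so their values are given side by side and are not independent of each other.

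**Figure D3:**
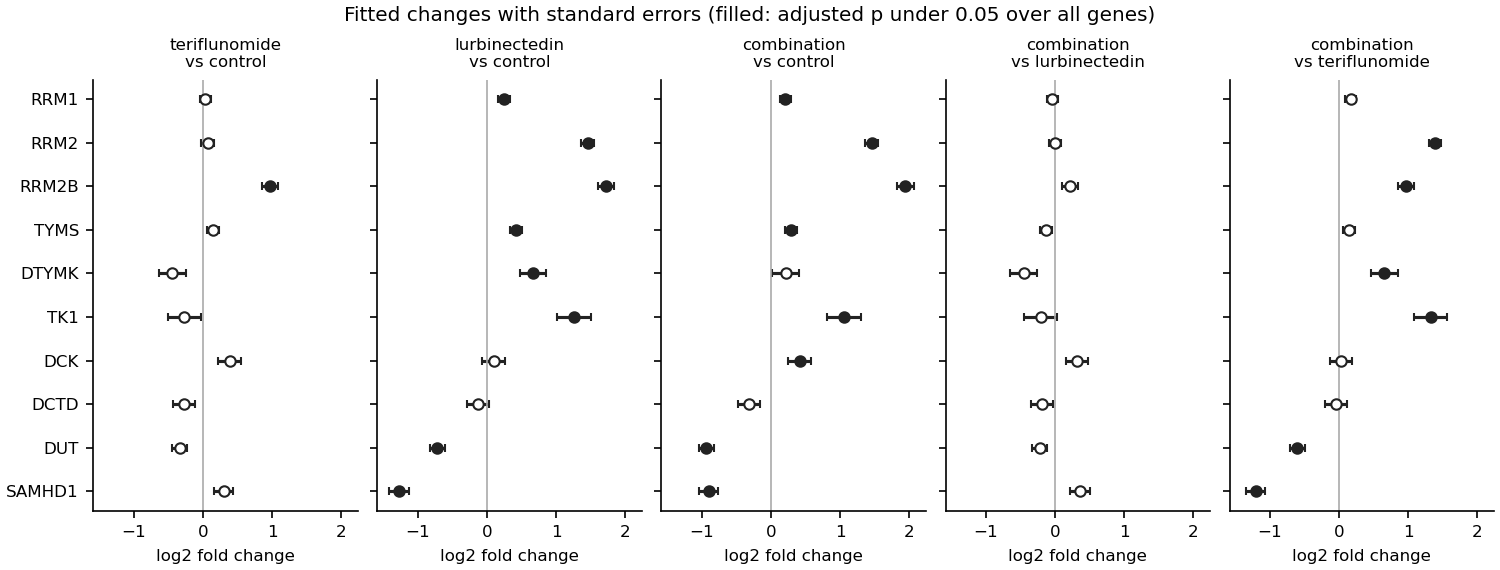
Log2 fold changes (x axis) of the 10 members from edgeR in 5 comparisons, with error bars for 1 SE; filled points have an adjusted p under 0.05 over all genes tested. The lurbinectedin and combination columns both run from SAMHD1 and DUT below 0 to RRM2 and RRM2B at the top of the range (1.46 and 1.73 with lurbinectedin), and the combination against lurbinectedin has open points only.

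Adding teriflunomide to lurbinectedin changed no member past the threshold. The 10 log2 differences of the combination from lurbinectedin ran from -0.45 for DTYMK to 0.37 for SAMHD1. The combination libraries were all below the lurbinectedin libraries for TYMS, DTYMK, DCTD and DUT, 4 of the 10 members, and 23.7% of all genes had groups that did not overlap in this comparison. The edgeR test called 0 of 16683 genes (2599 had an unadjusted p under 0.05), and DESeq2 called 584 genes, none of them a member. Combination replicate 2, with a mitochondrial share of 24.9%, was the lowest of its group for TYMS, DCTD, RRM1, TK1 and SAMHD1 and the highest for DUT. Without it and teriflunomide replicate 3, edgeR called DTYMK (-0.41, adjusted p = 0.0017), DUT (-0.28, adjusted p = 0.0375) and SAMHD1 (0.50, adjusted p = 0.00405).

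Within the teriflunomide group, replicate 3 set the spread of several members. It had the lowest values of its group for TK1 (16.9 against 41.5 and 38.1 CPM), DTYMK (21.2 against 43.6 and 40.1 CPM), DCTD (38.5 against 66.3 and 61.9 CPM) and TYMS (222 against 262 and 253 CPM). Its value was the highest for DCK (41.1 against 30.5 and 27.7 CPM). RRM2B was also highest there, at 169 CPM against 143 and 151. Without this library the log2 change with teriflunomide was 0.90 for RRM2B (SE 0.10), -0.19 for DTYMK (SE 0.091) and -0.069 for DCTD (SE 0.090). Its mitochondrial share of 22.6% moved with these values, and its part in them was not tested. The groups did not overlap between teriflunomide and control for 4 members (RRM2B and SAMHD1 higher, DTYMK and DUT lower), against 36.8% of all genes.

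Per base of deposited exonic length, TYMS was the most abundant member in every group. In control, CPM divided by exonic length in kilobases gave 91.6 for TYMS, 61.7 for RRM1, 25.5 for RRM2, 21.0 for TK1, 20.1 for DCTD and 19.8 for DTYMK. DUT followed at 15.5, RRM2B at 14.6, DCK at 8.16 and SAMHD1 at 2.13. Libraries of neighbours in this order overlapped for TK1 and DCTD, for DCTD and DTYMK, and for DUT and RRM2B, and were apart for the others. With teriflunomide RRM2B stood in the third place at 28.6, overlapping RRM2 at 26.7. With lurbinectedin RRM2 reached 69.9, overlapping RRM1 at 73.2, TK1 reached 50.3, overlapping RRM2B at 48.3, and SAMHD1 was last at 0.883. The order depends on the length: RRM2 has 9153 exonic bases in the tables and 3673 in its longest coding transcript, and with the latter its control level was 63.4 and its place remained the third. With that length RRM2 stood beside TYMS under lurbinectedin, at 174 and 178, and above it under the combination, at 174 and 163.

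The genomic span of a gene, from its first to its last base, went with the response to lurbinectedin across all genes, and the members were read against genes of like span. In 5 bins of equal gene number, the median log2 change with lurbinectedin was 0.69 for spans up to 5.26 kb, 0.62 up to 16.3 kb, 0.28 up to 35.9 kb, -0.36 up to 82.9 kb and -1.86 above. The members were placed in these bins by the span of their coding transcripts, which can differ from that of the gene row. RRM2 (10.7 kb), TK1 (13.2 kb), DTYMK (11.2 kb), TYMS (16.0 kb) and DUT (12.4 kb) lie in the second bin. Of these, RRM2 at 1.46 and TK1 at 1.26 were above the bin median, DTYMK at 0.67 was close to it, TYMS at 0.42 was below, and DUT at -0.72 was below 0. By percentile among the genes of the bin, RRM2 stood at 80.7, TK1 at 75.7, DTYMK at 52.4, TYMS at 41.4 and DUT at 9.16. RRM2B at 34.6 kb rose by 1.73 where the median was 0.28, and DCTD at 27.5 kb had -0.13 in the same bin. Their percentiles were 93.6 and 31.2. RRM1 (44.1 kb) and DCK (37.5 kb) had 0.25 and 0.10 in a bin with a median of -0.36, and SAMHD1 (62.1 kb) fell by 1.27 in that bin. The percentiles there were 74.7 for RRM1, 69.1 for DCK and 17.6 for SAMHD1. In the count tables the RRM2 row spans 91.0 kb, with exons outside the coding transcripts. By that span RRM2 would lie above 82.9 kb, in the bin with a median of -1.86, so its bin depends on the span used. The other members lie in the same bin by either span.

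**Figure D4:**
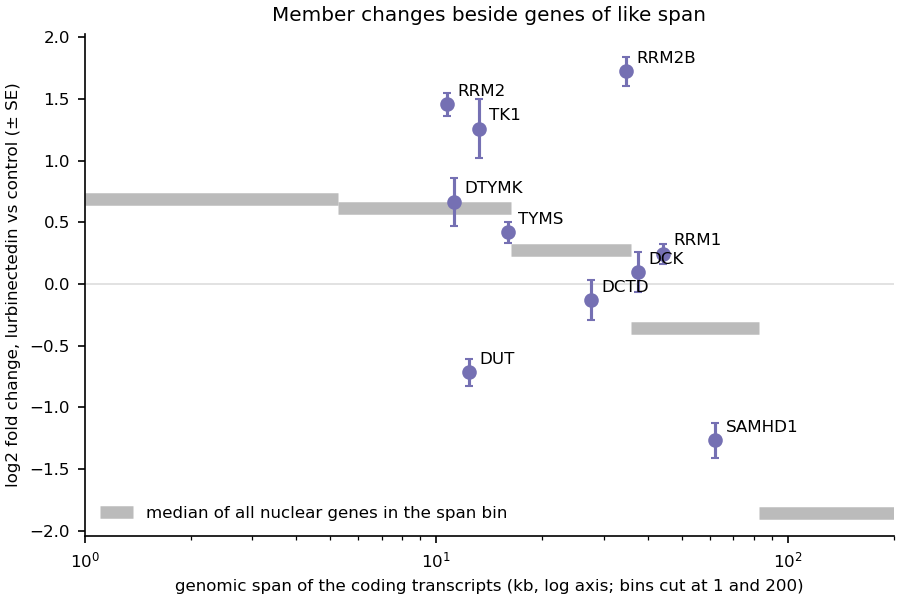
Log2 change with lurbinectedin (points, error bars for 1 SE) of the 10 members against the genomic span of their coding transcripts in kb on a log axis; grey bars are the medians of all nuclear genes in 5 span bins. RRM2B at 1.73 and RRM2 at 1.46 lie above the grey bars of their bins, and DUT at -0.72 and SAMHD1 at -1.27 lie below theirs.

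Other genes of deoxynucleotide salvage and turnover moved in both directions. Of 13 listed, 11 were tested, since CDA and TYMP were too low. With lurbinectedin 4 rose and 5 fell (median -0.45, against 0.05 over all genes), where 36.0% of all genes were called higher and 35.7% lower. With teriflunomide none was called, against 6.01% of all genes. PNP, purine nucleoside phosphorylase, rose from 48.5 ± 0.82 to 193 ± 15.4 CPM (SD, n = 3; log2 1.99, edgeR adjusted p = 6.08e-09). ADK, adenosine kinase, with a span of 559 kb, fell from 28.6 ± 1.17 to 2.15 ± 0.12 CPM (-3.73, adjusted p = 8.60e-11). With teriflunomide ADK had the smallest adjusted p of the list (-0.40, adjusted p = 0.0586, called without both libraries of high mitochondrial share), followed by NT5C, a nucleotidase for deoxynucleotides (-0.41, adjusted p = 0.0817).

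Among nucleotide kinases and enzymes that clear damaged or unwanted nucleotides, 11 of 12 were tested, and lurbinectedin raised 6 and lowered 1 (median 0.48). Over all genes, 36.0% were called higher and 35.7% lower. NME1, a nucleoside diphosphate kinase, rose from 80.3 ± 1.59 to 120 ± 8.33 CPM (SD, n = 3; log2 0.57, edgeR adjusted p = 8.69e-05), and its reads can be shared with the neighbouring, similar gene NME2. NUDT1, which hydrolyses oxidised purine nucleotides, rose by 0.94 (adjusted p = 0.0017). With teriflunomide 1 of the 11 was called, in the lower direction, against 2.13% of all genes called lower. DCTPP1, which hydrolyses dCTP, did not pass (-0.73, adjusted p = 0.0622) but was called lower without both libraries of high mitochondrial share; its teriflunomide level was 23.7 ± 8.79 CPM (SD, n = 3). The folate cycle that serves TYMS had 3 of 5 genes lower with lurbinectedin and none higher, against 35.7% and 36.0% of all genes. Among them MTHFD1 fell by 1.30 (edgeR adjusted p = 5.53e-07) and SHMT1 by 0.60 (0.00122). With teriflunomide none of the 5 was called; MTHFD1 was called lower without both libraries of high mitochondrial share.

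The genes of the G1/S transition driven by E2F, to which RRM2, TK1 and TYMS are commonly counted, did not move together. Of 15 tested, lurbinectedin raised 7 and lowered 4 (median 0.26), where 36.0% of all genes were called higher and 35.7% lower. PCNA, the sliding clamp, rose from 165 ± 6.15 to 432 ± 12.1 CPM (SD, n = 3; log2 1.39, edgeR adjusted p = 3.82e-09), and POLA1, the catalytic subunit of polymerase alpha, with a span of 303 kb, fell from 159 ± 4.22 to 9.71 ± 1.81 CPM (-4.03, adjusted p = 5.01e-10). Teriflunomide lowered 5 of the 15 and raised none (median -0.28, against 0.03 over all genes). Of all genes, 2.13% were called lower and 3.88% higher with teriflunomide. All 5 encode subunits of the replicative helicase: MCM6 (-0.57, adjusted p = 0.00353), MCM5 (-0.77, 0.0234), MCM4 (-0.36, 0.0249), MCM2 (-0.61, 0.0417) and MCM7 (-0.49, 0.0445). MCM3, the listed helicase subunit that was not called, had -0.29 (adjusted p = 0.110). MCM4, MCM2, MCM7 and MCM3 were named after their values were seen. The same 5 of the 15 genes were called without both libraries of high mitochondrial share, where 1198 of 16945 genes were called lower. MCM6 was the sole call without control replicate 1, 2 or 3, MCM5 and MCM6 were called without teriflunomide replicate 2, and MCM4, MCM5 and MCM6 without combination replicate 1 or any 1 lurbinectedin library. With library size as the only scaling 0 of the 15 genes were called, and with the replicate block 2 (MCM5 and MCM6).

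Among the p53 targets, listed without RRM2B, 19 of 19 rose with lurbinectedin (median 2.53), 19 of 19 with the combination (2.59) and 12 of 19 with teriflunomide (0.83), and none was called lower. Over all genes, 36.0%, 34.1% and 3.88% were called higher in the same order. Without both libraries of high mitochondrial share, 17 of 19 were called higher with teriflunomide, where 1559 of 16945 genes were. Without control replicate 2 it was 8 of 19, where 187 of 17098 genes were called higher. Scaling by library size alone also left 8 of 19, where 174 of 16683 genes were called higher. BTG2, an antiproliferative gene, averaged 31.1 ± 1.69 CPM in control (SD, n = 3). It was 76.3 ± 4.25 CPM under teriflunomide (log2 1.30, edgeR adjusted p = 5.55e-05) and 687 ± 28.8 CPM under lurbinectedin (4.47, adjusted p = 8.38e-12). TP53INP1 rose from 22.2 to 54.2 and 187 CPM and FDXR from 13.0 to 22.6 and 326 CPM in the same order. RRM2B rose less than the median of this list with lurbinectedin (1.73) and somewhat more with teriflunomide (0.97).

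Of 16 regulators of RRM2, RRM2B and SAMHD1 (E2F factors, RB1, p53, cyclins and their kinases, ubiquitin ligase subunits and checkpoint kinases), lurbinectedin raised 9 and lowered 5, where 71.6% of all genes were called, 36.0% higher and 35.7% lower. With library size as the only scaling it raised 6 and lowered 5, where 4313 of 16683 genes were called higher and 6699 lower. E2F7, a repressor of the E2F family, rose by 2.40 with lurbinectedin and by 0.71 with teriflunomide (edgeR adjusted p = 1.94e-10 and 0.00152), and CDK2, which phosphorylates SAMHD1 together with its cyclin, by 1.56 with lurbinectedin (adjusted p = 7.88e-09). E2F2, an activator, was the sole regulator called lower with teriflunomide (-0.92, adjusted p = 0.0249), going from 13.6 ± 0.69 to 7.18 ± 2.65 CPM (SD, n = 3). Without both libraries of high mitochondrial share 3 regulators were called lower, where 1198 of 16945 genes were.

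**Figure D5:**
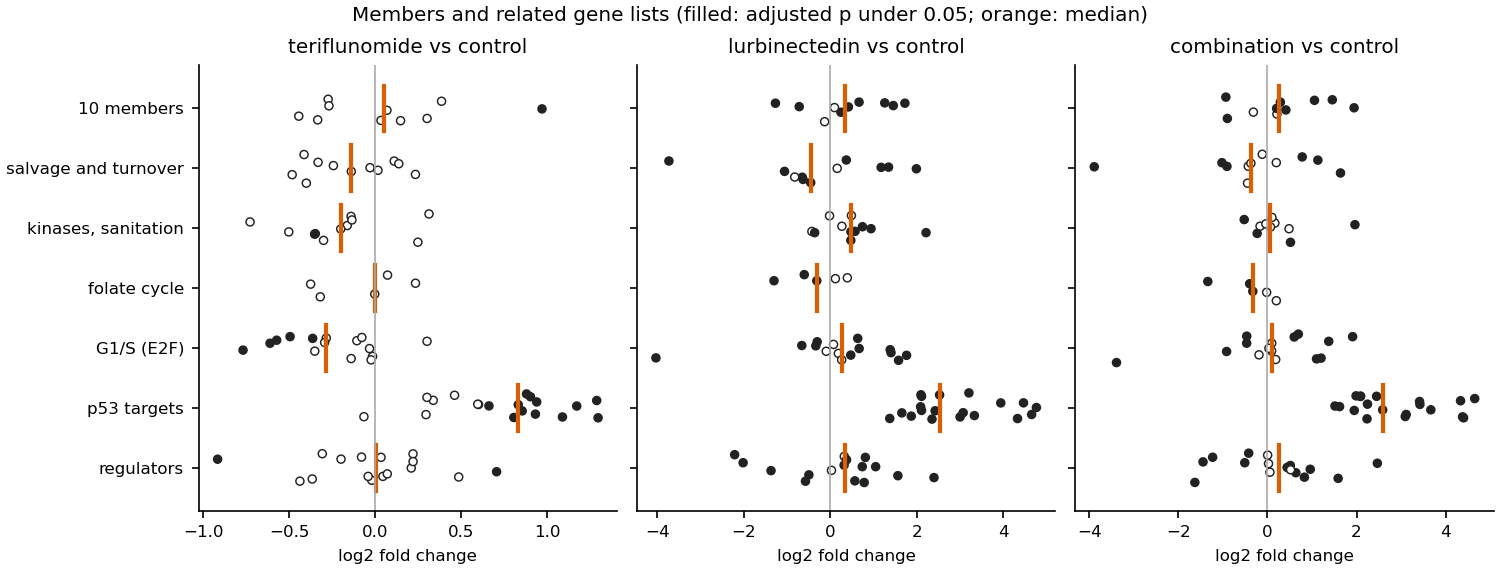
Log2 fold changes (x axis, a different range in each panel) of the 10 members and of 6 related gene lists in 3 comparisons with control; each point is a gene, filled where the edgeR adjusted p is under 0.05, and orange bars are medians. The p53 targets lie to the right of 0 with lurbinectedin (median 2.53), while the members spread on both sides (median 0.33).

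The genes whose profile over the 12 libraries was most like that of RRM2B, by Pearson's r of log2 CPM, were ABCA12 (0.995), TP53INP1 (0.986) and KLF5 (0.986), and 0.839% of genes reached 0.95. For RRM2, STOM (0.997) and CCN1 (0.995) were the nearest, and 9.06% of genes reached 0.95. For TK1 they were KEAP1 (0.997), CDT1 (0.997) and CPSF4 (0.997), with 6.70% at 0.95, and for SAMHD1 POGLUT3 (0.994), SNX7 (0.994) and GPR107 (0.994), with 12.9%. DUT was nearest to MRPL3 (0.987), HEATR1 (0.987) and RARS1 (0.983), with 0.288% at 0.95. The 12 points fall into 6 with and 6 without lurbinectedin and share libraries and scaling; r within each set was not computed. Among the members themselves, r was 0.92 for RRM1 and RRM2, 0.93 for DTYMK and TK1, -0.94 for RRM2B and DUT, and -0.93 for RRM2 and SAMHD1.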

How the data were processed

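RNA of 12 SBC3 spheroid libraries was purified with an RNeasy kit and made into poly(A)-selected KAPA mRNA libraries, per the labels' protocols. The values are raw read counts per gene, deposited by the authors as 1 table per library; the submitters' processing notes name fastp 0.23.2, STAR 2.7.9, Subread, featureCounts and hg38. The annotation release, strand setting and handling of multi-mapping reads were not given in the sources used here. All 37318 identifiers of the same version in GENCODE 29 had identical start and end positions there, so coordinates are GRCh38. Gene symbols were found for 60463 of 60649 rows.

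The counts were tested with edgeR 4.0.16 in R 4.3.3: filterByExpr (16683 genes), TMM scaling, and a robust quasi-likelihood fit of 1 mean per group to all 12 libraries, with Benjamini-Hochberg adjustment over all genes within a comparison and calls at an adjusted p under 0.05. SE is the absolute log2 fold change divided by the square root of the F statistic. CPM is on the TMM-scaled library size. The fit was also run on simulated data in which few genes changed and no library stood apart. That run is no check on these data, where most genes were called with lurbinectedin. The biological coefficient of variation from the common dispersion was 14.5%. Alternatives were DESeq2 1.42.0, DESeq2 size factors, library size only, no filter, a filter at 1 CPM in 3 libraries, a replicate block, only the groups compared, an adjusted p under 0.01, each library left out, and, chosen after seeing the data, both libraries of high mitochondrial share left out and another gene length. Named list genes are, per list, the 2 with the smallest adjusted p with lurbinectedin and the 2 with teriflunomide at a mean of at least 5 CPM; likeness was taken among genes with a mean of at least 10 CPM. A few genes that these rules name are not reported here. The members and lists were chosen with earlier results of these data known. Promoter sequences are from RefSeq. No library was left out of the main analysis.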

Additional observations from a re-analysis of the deposited data

Results flagged for a closer look

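No member of the deoxynucleotide set had an effect of teriflunomide that differed, by the interaction test, between spheroids with and without lurbinectedin in the fit to all 12 libraries. RRM2B came nearest (-0.75, edgeR adjusted p = 0.0992) and was called in 4 of 20 alternatives, and TYMS in 1. In the related lists, 5 of 19 p53 targets did, against 0.258% of all genes. All 5 had a smaller effect of teriflunomide beside lurbinectedin than alone (edgeR adjusted p from 0.00228 to 0.0196). The log2 interaction was -1.38 for BTG2, which rose by 1.30 with teriflunomide alone and differed by -0.08 between the combination and lurbinectedin. It was -1.06 for FAS (1.17 alone, 0.11 beside lurbinectedin), -1.04 for RPS27L (0.88 and -0.16), -0.94 for TP53INP1 (1.29 and 0.35) and -0.93 for SESN1 (0.85 and -0.08). FAS, RPS27L and SESN1 were named after their values were seen. Without teriflunomide replicate 3 the test called 14 of the 19 targets, and without both libraries of high mitochondrial share 15, all with a smaller effect beside lurbinectedin. Over all genes these fits called more too, 616 of 17072 and 1839 of 16945. With library size as the only scaling the test called 1 target (BTG2), with the replicate block 3 and with DESeq2 10. In the same order 6, 8 and 258 of 16683 genes were called. BTG2 was the sole call without control replicate 2 or 3 and without lurbinectedin replicate 1 or 3, and only BTG2 and RPS27L were called without control replicate 1, lurbinectedin replicate 2 or combination replicate 1. The 3 libraries of a group are too few for a test of outlying samples.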

How the results depend on the processing

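Of 1250 log2 changes of members under alternative settings, 1185 kept their side of the threshold, 32 passed it newly and 33 no longer passed it. None that was called changed sign. Of the 1185, 52 that were uncalled in both fits had the opposite sign. RRM2, RRM2B, TK1, SAMHD1 and DUT were called with lurbinectedin and with the combination against control in all 21 alternatives. For teriflunomide against control, against 1002 genes and 1 member, there were 230 genes at an adjusted p under 0.01, 265 with library size only, 283 with only the groups compared, 415 with the replicate block, 1800 genes and 2 members without the filter, 1907 and 2 with DESeq2, 2757 and 4 without both libraries of high mitochondrial share, and 216 to 1555 genes and 1 to 2 members with single libraries left out. For lurbinectedin against control, library size as the only scaling left 5 of 8 members and leaving out single libraries 7 to 8; it moved the median of all genes from 0.05 to -0.18 and the split from 5999 higher of 11953 calls to 4313 of 11012. Relative to that median, RRM1 changed by 0.20 in both scalings, TYMS by 0.37 and DTYMK by 0.61. Another scaling shifts all genes nearly alike, so this agreement was fixed in advance and is no check on these changes. For the combination against control the same scaling left 5 of 8 members, and single libraries left 6 to 10; 10 came without teriflunomide replicate 3. For the combination against lurbinectedin, against 0 genes and 0 members, there were 94 genes with only the groups compared, 584 with DESeq2, 612 without the filter, 3640 genes and 3 members without both libraries, and 0 to 2067 genes and 0 to 1 member with single libraries left out. For the interaction, against 43 genes and 0 members, there were 5 genes at the stricter threshold, 6 with library size only, 8 with the block, 195 genes and 1 member without the filter, 258 and 1 with DESeq2, 1839 and 2 without both libraries, and 2 to 616 genes and 0 to 1 member with single libraries left out. The cause was not tested.

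With coding transcript lengths the log2 ratio of RRM2B to RRM2 was -1.99 for control, -1.09 for teriflunomide, -1.72 for lurbinectedin and -1.51 for the combination. Same-numbered libraries did not deviate together: 1 of 18 pairs had r over 0.1, range -0.336 to 0.111. The range was -0.162 to 0.281 for the 36 pairs with different numbers. This cannot exclude pairing, since each group holds 3 libraries and 2 libraries stood apart from their groups. With the replicate block in edgeR, 6 members were called for the combination against control, without DCK (adjusted p = 0.0609) and RRM1 (0.0600). The members called in the other comparisons were unchanged in number. Counting precision is limited most for SAMHD1, with 178 counts in the lowest library.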
